A study of Mus musculus with 10 samples.

Results

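The transcripts described here are those of 10 heterogeneous nuclear ribonucleoprotein (hnRNP) genes, Hnrnpc, Hnrnpa1, Hnrnpa2b1, Hnrnpa3, Hnrnpd, Hnrnpf, Hnrnpk, Hnrnpl, Hnrnpm and Hnrnpu, of 55020 lines in the deposited expression table. The genes were chosen by symbol, and the set was selected on the measured difference of 1 of them: Hnrnpc was picked because it was among the clearest transcripts lower in the treated tumours, and the other 9 were added as named family members. All 10 passed the filter used for the tests, a mean level of 1 FPKM or more over the tumours, which 14496 lines passed. FPKM is a fragment count scaled by transcript length and library size.

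Poly-A RNA was sequenced from 10 tumours of HEPA1-6, a mouse hepatoma cell line, that had grown under the skin of C57/BL6 mice for 4 weeks. Mice of 5 tumours were treated with vehicle and mice of 5 with GSK343, an inhibitor of EZH2, the methyltransferase that places the repressive mark on lysine 27 of histone H3. Titles with G name GSK343, and titles with C were taken as vehicle by elimination. Some mice were given anti-asialo-GM1 antibody, directed at a surface marker of natural killer cells, or its control, per the protocols, and the labels do not assign these to tumours. Age, sex, dose and route are not in the labels. The series text calls the tumours biological replicates, and each is an implant of 1 line that also holds host cells.

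The hnRNPs are abundant nuclear proteins that coat RNA as it is transcribed and take part in splicing, 3' end formation, export and decay. Hnrnpc packages new transcripts and binds runs of uridine, where it competes with the splicing factor U2af2. Many hnRNP and SR genes control their own level through alternative exons that send part of their transcripts to nonsense-mediated decay, so that a gene-level value can pool coding and decaying isoforms.

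The starts of the 3 genes whose groups overlapped least, Hnrnpc, Hnrnpu and Hnrnpd, are shown because 2 of them were lower and 1 higher in the treated tumours. They were picked after their values were seen. Each sequence is the 250 bases before a RefSeq transcription start in GRCm38.p6, read 5' to 3' on the gene's strand. Capitals mark matches on either strand, overlaps included, to the CCAAT box (CCAAT), the GC box (GGGCGG), the TATA box (TATAAA) and the core of ETS factor sites (CCGGAA). The windows lie at chr14:52104022-52104271 on the minus strand for Hnrnpc, at chr1:178337816-178338065 on the minus strand for Hnrnpu and at chr5:99978939-99979188 on the minus strand for Hnrnpd.
Hnrnpc: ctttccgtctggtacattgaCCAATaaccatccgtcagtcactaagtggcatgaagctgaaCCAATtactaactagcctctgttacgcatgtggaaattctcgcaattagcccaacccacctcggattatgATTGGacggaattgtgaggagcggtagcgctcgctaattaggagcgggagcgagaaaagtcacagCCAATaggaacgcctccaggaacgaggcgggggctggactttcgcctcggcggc
Hnrnpu: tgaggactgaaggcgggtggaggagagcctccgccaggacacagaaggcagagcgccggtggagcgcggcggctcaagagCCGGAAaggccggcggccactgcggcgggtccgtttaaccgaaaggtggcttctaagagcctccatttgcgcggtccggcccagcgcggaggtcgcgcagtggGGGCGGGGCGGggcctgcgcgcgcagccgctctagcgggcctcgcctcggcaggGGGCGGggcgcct
Hnrnpd: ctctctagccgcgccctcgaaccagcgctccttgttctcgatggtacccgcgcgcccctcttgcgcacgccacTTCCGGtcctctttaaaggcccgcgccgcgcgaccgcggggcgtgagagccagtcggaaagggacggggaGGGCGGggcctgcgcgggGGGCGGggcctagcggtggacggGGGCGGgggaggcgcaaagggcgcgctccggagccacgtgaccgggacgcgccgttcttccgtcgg

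The Hnrnpc window held 4 CCAAT boxes, no GC box and 17 CG dinucleotides, with a GC content of 52.8%. The Hnrnpu window held 3 GC boxes, 1 ETS core, no CCAAT box and 32 CG dinucleotides. The Hnrnpd window matched that of Hnrnpu in kind, with 3 GC boxes, 1 ETS core, no CCAAT box and 39 CG dinucleotides, although the measured difference of Hnrnpd between the groups was of the opposite sign. RefSeq gave 14 start windows for the 10 genes, with 6 to 40 CG dinucleotides each against a median of 6 over 32817 windows of all genes, and 76.5% of those windows held fewer than that of Hnrnpc. A CCAAT box stood in 9 of the 14 windows, from 7 genes, and in 33.8% of all windows, and a GC box in 8 of the 14, from 6 genes, and in 32.7% of all windows. An ETS core was found in 6 of the 14, from 4 genes, against 12% of all windows, and a TATA box in 1, that of Hnrnpm, against 12.4%. Windows of 1 gene can overlap, and Hnrnpf alone had 4. A match describes the letters only.

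Hnrnpc, the poly-uridine binding protein of nuclear particles, had its 5 GSK343 values below its 5 vehicle values. In vehicle replicates 1, 2, 3, 5 and 6 its level was 118, 156, 146, 90 and 129.9 FPKM, and in GSK343 replicates 1 to 5 it was 71.4, 79.3, 84.3, 78.0 and 80.8 FPKM. The lowest vehicle tumour, replicate 5, lay closest to the treated tumours, and the treated tumours lay within a narrow range while the vehicle tumours were spread. Means were 128 ± 25.8 FPKM (SD, n = 5) and 78.8 ± 4.75 FPKM (SD, n = 5), so that the treated mean was 61.5% of the vehicle mean. The difference on the log2(FPKM + 1) scale was -0.67 with a standard error of 0.133 and a 95% interval of -0.96 to -0.38. Since Hnrnpc was picked for this difference, no p is given for it. A smaller number of expressing cells and less RNA per cell cannot be told apart in bulk tumours.

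Hnrnpc lies at chr14:52073377-52104028 in the deposited coordinates (mm10; ENSMUSG00000060373.15). GENCODE mouse release M21 gives it 13 transcripts of 582 to 2847 bases and no overlapping gene. In a ranking of all tested lines by the log2 difference it was number 87 from the lowest.

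Over the whole table, limma with Benjamini-Hochberg adjustment over 14496 lines called 12 lines at an adjusted p under 0.05, which is 0.0828% of those tested, with 10 higher (0.069%) and 2 lower (0.0138%). This count ranged from 3 to 98 when a single tumour was left out. None of the 10 hnRNP genes passed, Hnrnpc included. The groups did not overlap for 380 lines or 2.62%, with 174 lower (1.2%) and 206 higher (1.42%), and among the 10 genes for Hnrnpc alone, the one picked for its difference. Before adjustment, 995 lines lower (6.86%) and 1552 higher (10.7%) had a limma p under 0.05, and among the other 9 genes these were Hnrnpu (lower) and Hnrnpd (higher). The same contrast entered the choice of the set, so nothing is read from these counts.

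**Figure D1:**
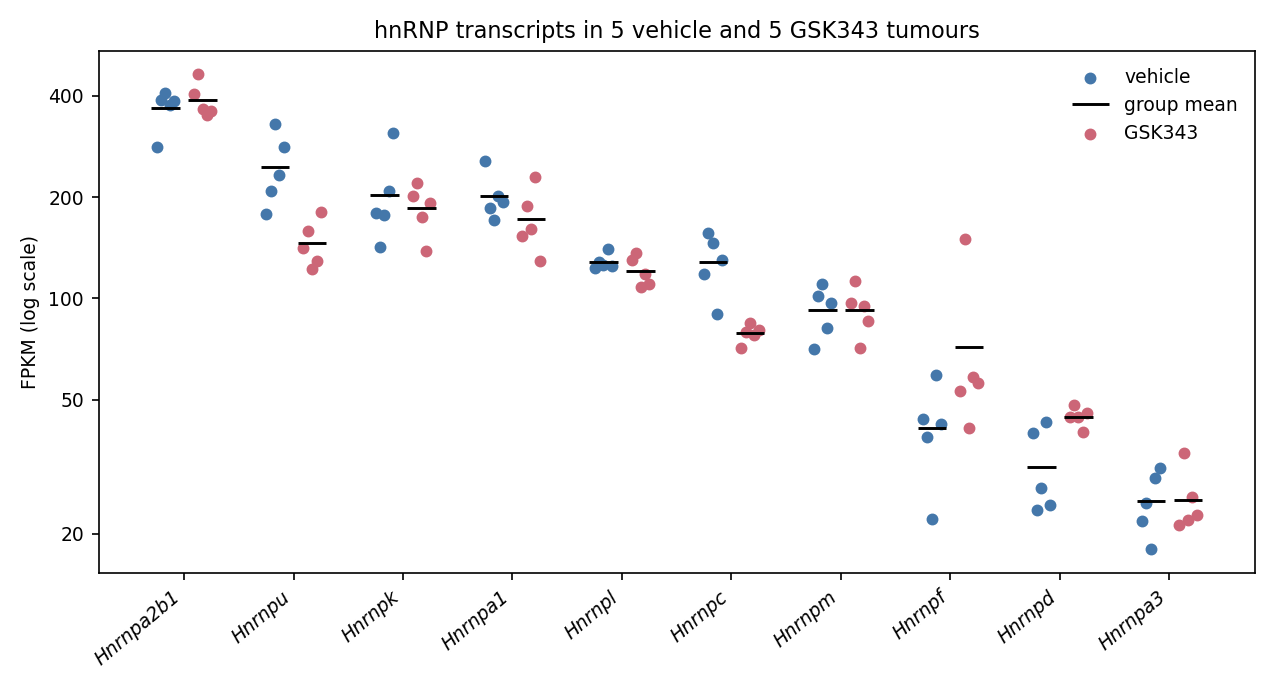
FPKM (log scale) of each hnRNP gene, 1 point per tumour, vehicle in blue and GSK343 in red, with black bars for the group means, ordered by mean level. Hnrnpc is the gene whose 2 groups do not overlap, and 1 GSK343 tumour stands at 150.2 FPKM of Hnrnpf.

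Hnrnpu, the nuclear matrix and chromatin-associated scaffold protein also called SAF-A, was measured at 178, 208, 329.6, 232 and 281 FPKM in vehicle replicates 1, 2, 3, 5 and 6. In GSK343 replicates 1 to 5 it was measured at 141, 159, 122, 129 and 180.1 FPKM. The groups overlapped only through GSK343 replicate 5, which lay just above vehicle replicate 1, and 4 of 5 treated tumours lay below every vehicle tumour. Means were 246 ± 60.1 FPKM (SD, n = 5) and 146 ± 23.6 FPKM (SD, n = 5), and the log2 difference was -0.72 with a standard error of 0.169 and a 95% interval of -1.1 to -0.35. This difference was slightly larger than that of Hnrnpc, with more spread between tumours, and limma's adjusted p over the table was 0.189. Hnrnpu lies at chr1:178321108-178337797 and overlaps Cox20 on the opposite strand, which had a mean of 17.7 FPKM. The sources used here do not say whether counting used strand, and without it the reads of the 2 genes cannot be told apart.

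Hnrnpd, also called AUF1, binds AU-rich elements and takes part in the decay of short-lived mRNAs. It was higher in the treated tumours: 39.9, 23.5, 27.3, 43.0 and 24.3 FPKM in vehicle replicates 1, 2, 3, 5 and 6 against 44.4, 48.2, 44.6, 40.1 and 45.7 FPKM in GSK343 replicates 1 to 5. Vehicle tumours gave 3 low and 2 high values, and 4 of 5 treated tumours lay above every vehicle tumour. Means were 31.6 ± 9.19 FPKM (SD, n = 5) and 44.6 ± 2.94 FPKM (SD, n = 5), and the log2 difference was 0.53 with a standard error of 0.166 and a 95% interval of 0.16 to 0.89. The adjusted p from limma was 0.199, so the difference did not pass over the table.

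Hnrnpc and Hnrnpd also differed in opposite directions among tumours of 1 group. Vehicle replicate 5, with the lowest Hnrnpc of its group, had the highest Hnrnpd, and vehicle replicate 2, with the highest Hnrnpc, had the lowest Hnrnpd. After the group means were subtracted, Pearson's r between their log2 levels was -0.80 and Spearman's rho -0.71 over the 10 tumours, the lowest of the 45 pairs among the 10 genes. Without those 2 vehicle tumours, the farthest from the median of Hnrnpc, r was -0.47, so the relation rests in large part on them. Both levels come from the same library, and the correlation is a description of these tumours with no p. Of the 45 pairs, 31 were positive, 8 had an r above 0.5 and 3 an r below -0.5, with a median of 0.19. The highest correlations were Hnrnpa3 with Hnrnpf (0.86), Hnrnpa2b1 with Hnrnpm (0.81) and Hnrnpf with Hnrnpl (0.69).

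**Figure D2:**
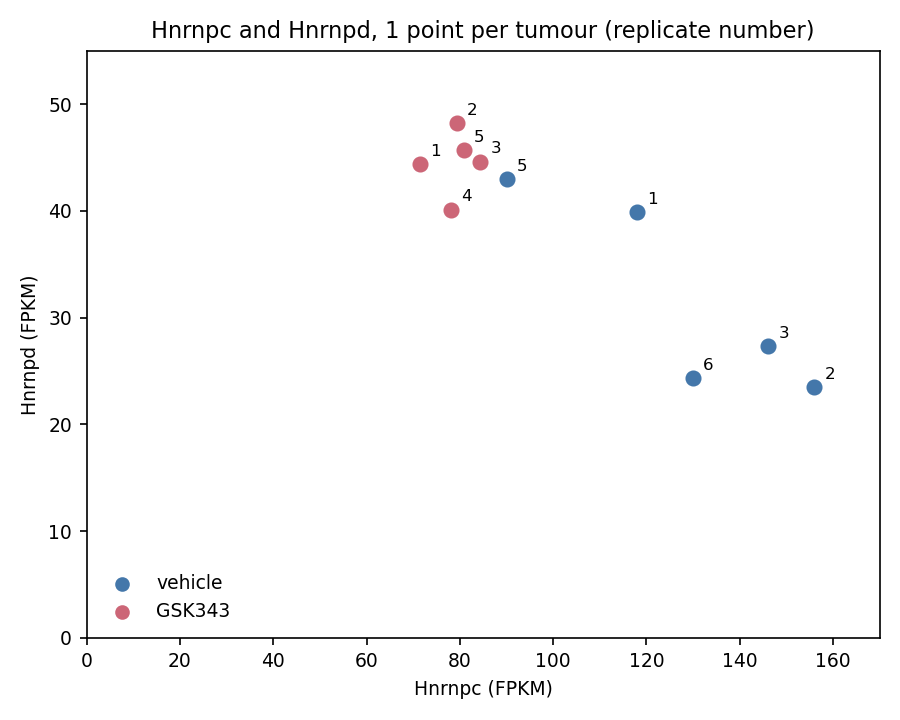
Hnrnpd against Hnrnpc in FPKM, 1 point per tumour with its replicate number, vehicle in blue and GSK343 in red. The treated tumours lie at 71.4 to 84.3 FPKM of Hnrnpc and 40.1 to 48.2 FPKM of Hnrnpd, and vehicle replicate 5 (90 and 43.0 FPKM) lies nearest to them.

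Hnrnpf, which binds runs of guanosine near splice sites, gave the largest positive difference and the least certain one. Its levels were 44.0, 38.8, 22.2, 59.2 and 42.4 FPKM in the vehicle tumours and 53.1, 150.2, 41.3, 58.5 and 56.2 FPKM in the treated tumours, in the order given above. GSK343 replicate 2 stood far above all others, and the remaining treated tumours overlapped the vehicle tumours. Means were 41.3 ± 13.2 FPKM (SD, n = 5) and 71.8 ± 44.3 FPKM (SD, n = 5), with a log2 difference of 0.69, a standard error of 0.34, a 95% interval of -0.06 to 1.44 and a limma adjusted p of 0.322. Without GSK343 replicate 2 the difference was 0.38.

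The A and B type proteins Hnrnpa1, Hnrnpa2b1 and Hnrnpa3, which bind UAG-like motifs and often act as splicing silencers, had overlapping groups. Hnrnpa1 was 202 ± 32.4 FPKM in vehicle tumours, from 171 to 256, and 172 ± 38.4 FPKM in treated tumours, from 129 to 229.9 (SD, n = 5 each). Its log2 difference was -0.24 with a 95% interval of -0.58 to 0.11 (limma adjusted p = 0.443), and it turned to 0.0819 with a leukocyte score in the model. Hnrnpa2b1, which is also described as a reader of N6-methyladenosine, was the most abundant of the 10 in both groups, at 367 ± 48.9 and 388 ± 45.5 FPKM (SD, n = 5 each). Vehicle replicate 1, at 282 FPKM, stood apart from the other 4 vehicle tumours at 376 to 407 FPKM, and without it the difference of 0.08 became -0.00757. The 95% interval of that difference was -0.17 to 0.34. Hnrnpa3, close in sequence to both, was the least abundant at 25 ± 5.46 and 25.3 ± 5.57 FPKM (SD, n = 5 each), with a difference of 0.02, an interval of -0.36 to 0.39 and a sign that depended on single tumours.

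Hnrnpk, a KH-domain protein that binds cytidine-rich RNA, was 203 ± 64.2 FPKM in vehicle and 185 ± 31.2 FPKM in treated tumours (SD, n = 5 each). Vehicle replicate 6, at 310.5 FPKM, was the highest, and without it the difference of -0.10 (interval -0.54 to 0.33) became 0.0608. Hnrnpk overlaps Rmi1 on the opposite strand (mean 3.55 FPKM) and Mir7-1 on its own strand (1.83 FPKM). Hnrnpl, which binds CA repeats, had the smallest within-group SD of log2 levels of the 10, pooled over both groups (0.113). Its levels were 128 ± 6.77 and 121 ± 12 FPKM (SD, n = 5 each), with a log2 difference of -0.09 and an interval of -0.27 to 0.08. Hnrnpm, a splicing regulator that binds GU-rich RNA, was 92.2 ± 15.9 and 92.5 ± 15.3 FPKM (SD, n = 5 each). Its difference was 0.01 with an interval of -0.31 to 0.33, and its sign depended on the scaling, being -0.00392 with median-of-ratios scaling. Hnrnpm overlaps March2 on the same strand, which had a mean of 15.9 FPKM, so reads in the shared part cannot be told apart by strand. Among these 6 genes the interval of Hnrnpl was the narrowest, while those of Hnrnpa1 and Hnrnpk still cover a log2 difference of -0.5.

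**Figure D3:**
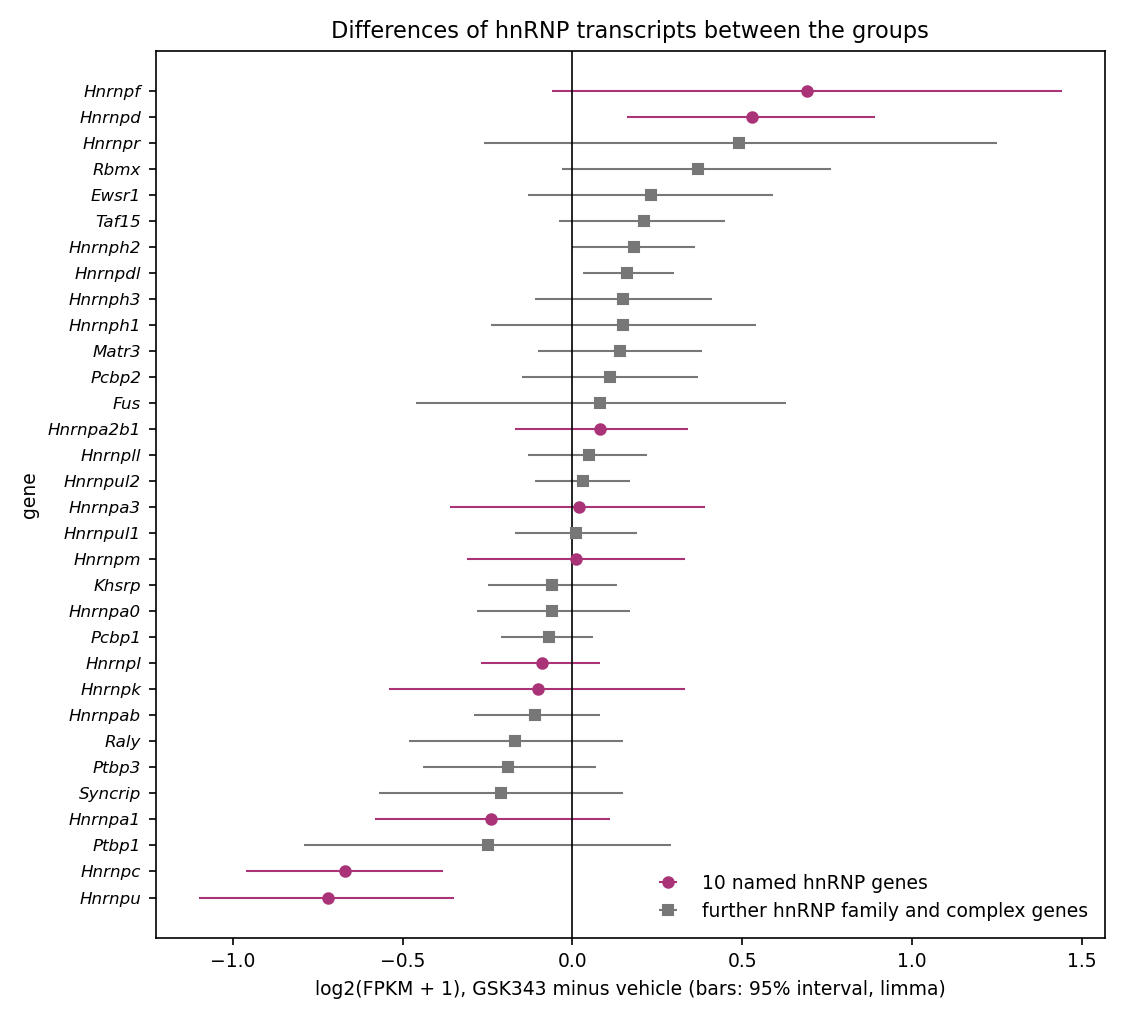
Log2(FPKM + 1) difference, GSK343 minus vehicle, with 95% limma intervals, for the 10 hnRNP genes (purple circles) and 22 further genes of the family and its complexes (grey squares), in order of the difference. Hnrnpu (-0.72) and Hnrnpc (-0.67) stand at the low end and Hnrnpf (0.69) and Hnrnpd (0.53) at the high end.

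Together the 10 genes showed no common direction. In the fit 5 were lower and 5 higher, and the median difference was -0.04, or 0.01 without Hnrnpc, against -0.01 over all lines, of which 52.4% were lower. The summed level of the 10 was 1312 to 1619 FPKM in vehicle and 1195 to 1591 FPKM in treated tumours, ranges that overlapped. Hnrnpc made up 6.16 to 11.2% of that sum in vehicle and 4.98 to 7.06% in treated tumours.

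The order of levels shifted in its middle. In vehicle tumours it ran Hnrnpa2b1 (367 FPKM), Hnrnpu (246), Hnrnpk (203), Hnrnpa1 (202), Hnrnpl (128), Hnrnpc (128), Hnrnpm (92.2), Hnrnpf (41.3), Hnrnpd (31.6) and Hnrnpa3 (25). The ranges of neighbours in this order overlapped except between Hnrnpa1 and Hnrnpl and between Hnrnpm and Hnrnpf. In treated tumours Hnrnpu came after Hnrnpk and Hnrnpa1, and Hnrnpc came after Hnrnpm. There the ranges of neighbours overlapped except between Hnrnpa2b1 and Hnrnpk and between Hnrnpd and Hnrnpa3.

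Most of the 10 genes varied more between tumours of a group than the median of lines in 1 broad range of level, not matched to each gene. Among 4206 lines with a mean of 20 to 400 FPKM, the median within-group SD of log2 levels was 0.163, and 9 of the 10 genes lay above it. Hnrnpf was the most variable at 0.612, above 96.1% of those lines, and Hnrnpk had 0.346, above 87.0%. Hnrnpc had 0.227, above 71.8%, and Hnrnpl was the exception at 0.113, above 20.7%. All 10 genes have several annotated transcripts of different length, from 5 for Hnrnpa1 to 34 for Hnrnpk, and isoform use and level cannot be told apart in 1 value per gene.

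Annotated pseudogenes offered a second view of 7 of the genes, added after their values were seen. A copy was taken as a GENCODE pseudogene transcript that matched a transcript of the gene at 90% identity or more over at least 300 bases. Such copies numbered 67, with 37 for Hnrnpa3, 16 for Hnrnpa1, 7 for Hnrnpf, 3 for Hnrnpc, 2 for Hnrnpk, 1 each for Hnrnpl and Hnrnpa2b1 and none for Hnrnpd, Hnrnpm and Hnrnpu. Of these, 42 had a mean of at least 1 FPKM and limma called 0. The sources used here do not say how reads that match both a gene and its copy were assigned, and the levels of a gene and its copies are uncertain where the sequences are near identical.

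The summed level of the Hnrnpc copies was 14.4 ± 2.1 FPKM in vehicle and 13.8 ± 1.28 FPKM in treated tumours (SD, n = 5 each), with ranges of 11.8 to 17.6 and 12.4 to 15.6 FPKM that overlapped. The most abundant, Gm12696 at chr4:97521428-97522332, is 97.9% identical over 905 bases and was 12.6 ± 1.54 and 11.8 ± 0.955 FPKM (SD, n = 5 each). Its log2 difference was -0.09 with a 95% interval of -0.29 to 0.11, and it was not compared by a test with that of Hnrnpc, which was picked for its difference.

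For Hnrnpf and Hnrnpa3 the summed FPKM of the copies was above that of the gene. FPKM is scaled by length, so such a sum is not a share of the reads. The copies of Hnrnpf summed to 251 ± 24.1 FPKM in vehicle and 256 ± 21.9 FPKM in treated tumours (SD, n = 5 each), 6.08 and 3.56 times the level of the gene. In GSK343 replicate 2, where Hnrnpf was 150.2 FPKM, they summed to 272 FPKM, within the range of the other tumours. The copies of Hnrnpa3 summed to 224 ± 18.4 and 240.2 ± 25.1 FPKM (SD, n = 5 each), 8.94 and 9.5 times the level of the gene. Those of Hnrnpk summed to 39.8 ± 3.45 and 39.9 ± 3.8 FPKM (SD, n = 5 each), with 37.8 FPKM in vehicle replicate 6, where Hnrnpk was highest.

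Summed copies varied less than the gene for Hnrnpf, Hnrnpa3, Hnrnpk and Hnrnpa1 in both groups. The coefficient of variation between vehicle tumours was 32.1% for Hnrnpf and 9.58% for its summed copies, and between treated tumours 61.7% and 8.55%. For Hnrnpa3 it was 21.8% against 8.22% in vehicle tumours and for Hnrnpk 31.6% against 8.66%. Hnrnpl was the reverse, at 5.27% for the gene and 11% for its copy, as was Hnrnpa2b1 (13.3% and 18.5%), while for Hnrnpc it was 20.1% and 14.6% in vehicle but 6.03% and 9.26% in treated tumours. A sum over several lines can vary less than any 1 of them, so these values do not compare single copies with the gene. Hnrnpl and Hnrnpa2b1 have 1 copy each, that of Hnrnpa2b1 at means of 1.86 and 1.76 FPKM.

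**Figure D4:**
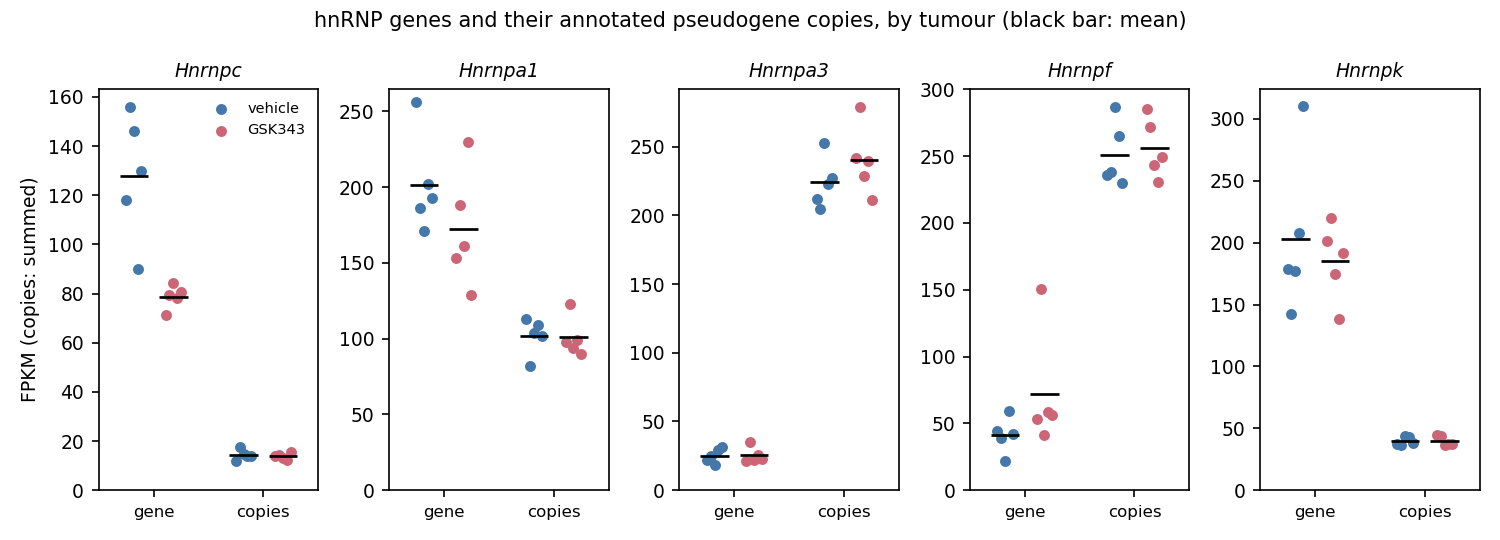
FPKM of 5 hnRNP genes and the summed FPKM of their annotated pseudogene copies, 1 point per tumour, vehicle in blue and GSK343 in red, with black bars for group means and an axis from 0 in each panel. The group means of Hnrnpc are 128 and 78.8 FPKM, and those of its summed copies, whose groups overlap, are 14.4 and 13.8 FPKM.

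Markers of cell types and of proliferation were compared between the groups, and limma called none, where 0.0828% of all lines were called. In the fit 52.4% of all lines were lower. At an unadjusted limma p under 0.05, 8 of 10 pan-leukocyte, 5 of 8 fibroblast and 6 of 7 skeletal muscle genes were higher. So was 1 of 5 endothelial genes, where 10.7% of all lines were higher. Of the hepatoma genes 3 of 10 were lower, where 6.86% of all lines were, and no proliferation gene passed. Summed hepatoma genes, among them Afp and Alb at means of 2085 and 3129 FPKM in vehicle tumours, were 7391 to 9946 FPKM in vehicle and 6048 to 7741 FPKM in treated tumours, with 10 of 10 lower in the fit, so the labelled cell type was present in each tumour. Summed pan-leukocyte genes were 382 to 1051 and 754 to 1231 FPKM, with 9 of 10 higher and a median log2 difference of 0.75. Fibroblast genes had a median difference of 0.50 (7 of 8 higher, 1569 to 1982 and 1521 to 2318 FPKM) and endothelial genes of 0.23 (4 of 5 tested, 44.3 to 65.6 and 49.7 to 72.3 FPKM). Most of the fibroblast sum was Dcn, at means of 1169 and 1082 FPKM, the 1 fibroblast gene that was lower (-0.11). Skeletal muscle genes had a median difference of 1.83 (7 of 7 higher), from 2.71 to 99.6 FPKM in vehicle and 57.1 to 422 FPKM in treated tumours. Proliferation genes had one of -0.06, with 12 of 14 lower, from 535 to 721 and 521 to 617 FPKM. No marker was at 0 in all tumours. With a pan-leukocyte score as a covariate the difference of Hnrnpc was -0.92, and the part of the other cell types in the results was not tested.

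The FPKM sums of the tumours were 574547 to 623397, which do not give library size, since FPKM is scaled by it. Vehicle tumours had 13985 to 14348 lines at 1 FPKM or more and GSK343 tumours 14355 to 14714, ranges that did not overlap. Cell composition and depth cannot be told apart here, and the cause was not tested. Mitochondrial genes took 2.63 to 5.05% of the sum in 8 tumours, and 7.17 and 7.11% in GSK343 replicates 3 and 5. Without those 2 tumours 4 lines were called, and the difference of Hnrnpc, which was picked for it, was -0.72.

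The rest of the splicing pathway was described by 10 lists, which held 111 genes, of which 110 passed the filter (Srsf12 did not), and limma called 0 of them, with a smallest adjusted p of 0.191. At an unadjusted p under 0.05 there were 2 higher and 10 lower, where 10.7% of all lines were higher and 6.86% lower. All 110 lay within 0.5 of 0 on the log2 scale, 40 were higher and 70 lower in the fit, where 52.4% of all lines were lower, and their median was -0.05, against -0.01 over all lines. The share of all lines within 0.5 of 0 was not computed. The groups did not overlap for 2 of the 110, or 1.82%, against 2.62% of all lines.

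Among the 22 further hnRNP family and complex genes, 14 were higher and 8 lower, with a median of 0.06. Hnrnpdl, the nearest relative of Hnrnpd, was 56.3 ± 3.6 FPKM in vehicle and 63.1 ± 1.81 FPKM in treated tumours (SD, n = 5 each), with groups that did not overlap, a difference of 0.16 and a limma adjusted p of 0.221. Hnrnph2, a relative of Hnrnpf, was 17.5 ± 1.62 and 19.9 ± 1.56 FPKM (SD, n = 5 each), a difference of 0.18.

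The SR proteins and Tra2 proteins, which mostly promote exon use and so often oppose hnRNPs, had a median of -0.03 with 5 higher and 7 lower. Srsf9 was 79.6 ± 6.22 and 65.7 ± 4.97 FPKM (SD, n = 5 each) with no overlap, a difference of -0.27 and a limma adjusted p of 0.191. Srsf5 was 106 ± 12.5 and 126 ± 14.7 FPKM (SD, n = 5 each), a difference of 0.25. The SR protein kinases had a median of 0.04 with 5 of 6 higher, and the differences of Clk1 and Clk4 were 0.21 and 0.11.

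No gene of the 3 lists of core spliceosome proteins was called by limma. Of the 35 genes, 5 had an unadjusted limma p under 0.05, all lower, where 6.86% of all lines were lower and 10.7% higher at that threshold. In the fit, where 52.4% of all lines were lower, Sm core and U1 genes had 9 of 10 lower and a median of -0.09, U2 and 3' splice site genes 11 of 15 lower and a median of -0.10, and U5 and tri-snRNP genes 8 of 10 lower and a median of -0.10. The differences were -0.18 for Snrpc, a U1 protein, and -0.16 for Snrpb, of the Sm ring. They were -0.17 for Snrpa1 and -0.23 for Phf5a, both U2 proteins, and -0.23 for Prpf3 and -0.15 for Eftud2 of the tri-snRNP. None of these 6 passed limma's test. The medians of these 3 lists depended on the model and the tumours: from -0.0937, -0.10 and -0.0994 they became -0.00112, -0.0266 and -0.0225 with the leukocyte covariate, and -0.0502, -0.0278 and -0.00319 without GSK343 replicates 3 and 5. Over the 23 alternatives the median of the further hnRNP genes lay between 0.0175 and 0.11. The medians of the SR proteins, the SR kinases, the methyladenosine genes, the paraspeckle genes and the import and methyltransferase genes crossed 0 in some.

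Genes of N6-methyladenosine marking, whose marks are described as opening binding sites for Hnrnpc, had a median of -0.05 with 7 higher and 10 lower. Igf2bp3, an oncofetal mRNA-binding protein and reader of the mark, was 14.4 ± 0.678 and 10.6 ± 1.95 FPKM (SD, n = 5 each), a difference of -0.43 with a limma adjusted p of 0.191, and Rbm15, of the writer complex, gave -0.19. Of the 10 nonsense-mediated decay factors none was called, where 0.0828% of all lines were. None had an unadjusted limma p under 0.05, where 6.86% of all lines were lower and 10.7% higher. All 10 were lower in the fit, where 52.4% of all lines were lower. Their fitted differences ran from -0.19 (Upf3b) to -0.01 with a median of -0.05, which was -0.0115 without GSK343 replicates 3 and 5. Paraspeckle genes gave -0.12 for Nono and 0.05 for Pspc1. Among import receptors and arginine methyltransferases, Tnpo1, the receptor that carries Hnrnpa1 into the nucleus, was 26 ± 4.54 and 20.7 ± 2.87 FPKM (SD, n = 5 each), a difference of -0.31 with a limma adjusted p of 0.266, and Prmt5 gave -0.12.

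**Figure D5:**
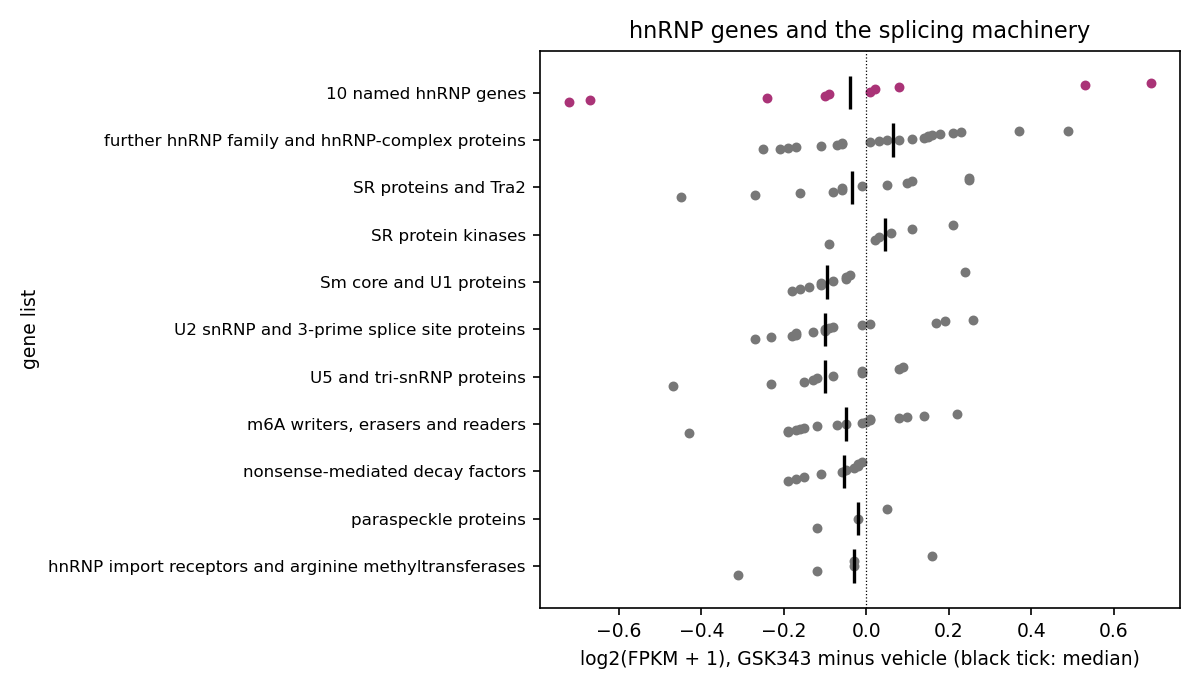
Log2(FPKM + 1) difference, GSK343 minus vehicle, of each gene (points) with the median of each list (black tick), for the 10 hnRNP genes in purple and 10 lists of the splicing machinery in grey. The 110 tested list genes lie within 0.5 of 0, and 4 of the 10 hnRNP genes lie outside. These are Hnrnpc, picked for its difference, Hnrnpu, Hnrnpd and Hnrnpf. Leaving out single tumours brought Hnrnpd down to 0.43 and Hnrnpf to 0.38. The share of all lines outside was not computed, so nothing is read from this contrast.

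The genes most like Hnrnpc were ranked by Pearson's r of log2 levels over the 10 tumours, among 5999 named protein-coding lines that averaged 10 FPKM or more. They were Apba3 (r 0.88, rho 0.89), Prmt2 (0.88, 0.85), Gtf2h1 (0.88, 0.76), Rabggta (0.85, 0.55) and Rassf7 (0.83, 0.73). The groups separate in Hnrnpc, so a pooled r carries the group difference. Hnrnpu ranked 24 with an r of 0.75, and Hnrnpd was last of the 5999 with an r of -0.90. After subtraction of the group means the 5 most like were Socs1 (r 0.94, rho 0.87), Ppm1m (0.91, 0.61), Hist1h2ao (0.90, 0.66), Irf9 (0.90, 0.85) and Actb (0.88, 0.84). Hnrnpd then ranked 5968 with -0.80, and Hnrnpu had an r of 0.18. The SD of Hnrnpc was 25.8 FPKM in vehicle and 4.75 FPKM in treated tumours, so these r rest mostly on vehicle tumours. They were not recomputed without vehicle replicates 2 and 5. The means of Socs1 (7.2 and 14.7 FPKM) and Irf9 (8.97 and 14.3 FPKM) were higher in treated tumours, unlike that of Hnrnpc. Those of Ppm1m (15.6 and 16.9), Hist1h2ao (14.2 and 14.1) and Actb (1323 and 1339) were closer between the groups.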

How the data were processed

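Poly-A RNA of 10 tumours, 5 per group, was measured. The authors' deposited table holds 1 FPKM value per gene and tumour. Its header names no unit, and FPKM was read from the values. The mm10 genome and the tools HISAT2 2.1.0, Trimmomatic 0.33 and StringTie 1.3.3b are named, per the submitters' processing notes. The sources used here do not state library depth, annotation release or strandedness. The table has 10 columns with no name and no values, which were not used.

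From the deposited FPKM values, log2(FPKM + 1) was fitted in R 4.3.3 by limma 3.58.1, using its intensity trend, over the 14496 lines whose mean reached 1 FPKM, with Benjamini-Hochberg adjustment, two-sided, at 0.05. On this scale the change of low genes is understated. In simulated data over 14496 lines, changes were put only into lines of higher level, with independent normal noise. There the fit recovered 92% of 2-fold and 98% of 4-fold changes, and 7.32% of its calls were false. These rates do not cover low lines or shifts that many lines share within a tumour. Python 3.11.15 and blastn 2.17.0 were used for the rest. GENCODE mouse release 21 held 54113 of 55020 identifiers. The members and lists were chosen with earlier results of these data known. Named were all 10 genes, the 2 genes of each list with the smallest p, and the 5 genes most like Hnrnpc before and after subtraction of group means. Of these, 1 gene is not reported here. The labels give no batch. Alternatives were filters, pseudocounts, scalings, variance models, tumour weights, a leukocyte covariate, the replicate block and leaving out tumours.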

Additional observations from a re-analysis of the deposited data

Results flagged for a closer look

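Of 60 groups of 5 tumours examined, 3 held a value far from the rest, and chance gives about 5%. Hnrnpf was 150.2 FPKM in GSK343 replicate 2, where the next tumour of the group was 58.5 and the lowest 41.3. Hnrnpa2b1 was 282 FPKM in vehicle replicate 1, where the next was 376 and the highest 407. Hnrnpl was 140.1 FPKM in vehicle replicate 5, where the next was 128 and the lowest 123.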

How the results depend on the processing

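Across 23 alternatives the difference of Hnrnpc ran from -0.92 (pan-leukocyte covariate) to -0.59, and from -0.79 to -0.59 when a single tumour was left out. Hnrnpc was picked for its difference and its groups do not overlap, so leaving out tumours could not turn its sign. Nothing is read from its constant direction. Hnrnpu (-0.83 to -0.61), Hnrnpd (0.43 to 0.75), Hnrnpf (0.38 to 1.26) and Hnrnpl (-0.14 to -0.00446) kept their direction. For Hnrnpu and Hnrnpd, 4 of 5 treated tumours lay beyond every vehicle tumour, so leaving out 1 tumour could hardly turn the sign. The 95% intervals of Hnrnpf (-0.06 to 1.44) and Hnrnpl (-0.27 to 0.08) cover 0. The number of lines called moved from 12 (10 higher, 2 lower) to 6 (4 higher) with no filter, 3 (2 and 1) at a mean of at least 5 FPKM, 7 (5 higher) under quantile normalization and also under median-of-ratios scaling, and 2 (2 and 0) with the covariate. Leaving out single tumours gave 3 to 98 lines, 3 to 91 higher and 0 to 7 lower: 6, 98, 5 and 5 without vehicle replicates 1, 2, 5 and 6, and 37, 4, 3, 3 and 6 without GSK343 replicates 1 to 5. Without GSK343 replicates 3 and 5 together, chosen after seeing the data, 4 lines were called (3 and 1). The cause was not tested.

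With the replicate number as a replicate block in the 8 tumours whose number occurs in both groups, 2 lines were called (2 and 0), and 5 (5 and 0) in the same 8 tumours with no block, an alternative chosen after seeing the data. Correlations of the same-numbered tumours were -0.112, -0.332, 0.0349 and -0.194, and no vehicle tumour correlated best with the treated tumour of its own number. With so few tumours this cannot exclude a pairing by number, and the labels give none.

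Signs turned for Hnrnpm (-0.00392 with median-of-ratios scaling, -0.036 with the covariate, -0.0841 to 0.0947 leaving out single tumours), Hnrnpa3 (-0.0342 with tumour weights, -0.10 to 0.10), Hnrnpa1 (0.0819 with the covariate), Hnrnpk (0.16 with the covariate, 0.16 with the block and 0.16 in those 8 tumours without it, -0.22 to 0.0608) and Hnrnpa2b1 (-0.00757 to 0.12). Depth is unknown, so no counting error can be given for low levels.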

Other observations

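Hnrnpr, picked after its values were seen, had the largest difference of the further hnRNP genes at 0.49, with 5.42 FPKM in vehicle replicate 5 against 19.0 to 25.6 FPKM in the other vehicle tumours and 21.5 to 28.6 FPKM in the treated tumours (limma adjusted p = 0.469).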
